A study of Mus musculus with 6 samples.

Results

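Small leucine-rich proteoglycans are secreted matrix proteins whose core is built of leucine-rich repeats and, in many of them, carries sulphated sugar chains. They bind collagen fibrils, limit how fibrils grow in width and hold growth factors such as TGF-beta in the matrix. In arteries they are made mainly by adventitial fibroblasts and smooth muscle cells, and male mice that lack biglycan are known to be prone to aortic rupture. The members described here are 10 genes, chosen by symbol: Dcn, Bgn, Lum, Fmod, Prelp, Ogn, Omd, Aspn, Podn and Kera. All 10 had a row among the 18749 genes of the files, 9 had enough reads to be tested, and Kera did not.

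The levels come from RNA sequencing of aortas, with 3 libraries in each of 2 groups. One group, here called Sept2C111A recipients, was Apoe-/- mice that carried marrow from Apoe-/-Sept2C111A donors. The other, called control recipients, was Apoe-/- mice that carried marrow from Apoe-/- donors. Mice of both groups lacked apolipoprotein E, as did the marrow of both, and both received angiotensin II for 28 days, a treatment under which Apoe-/- mice develop aortic aneurysms. A marrow graft gives rise to every blood lineage and not to macrophages alone. Wall cells that are not of blood origin, such as smooth muscle cells and fibroblasts, are taken as the recipient's own. The sources used here do not give age, sex, strain background, the aortic segment or how recipients were prepared for the marrow. Libraries held 17082719 to 20494928 expected counts, and levels are given as CPM, the count scaled to the library's TMM-adjusted total. The column of Sept2C111A library 3 was headed with a number that none of the 6 libraries carries, and it was taken as GEO's sample record gives it. In whole tissue, fewer cells of a type and less RNA per cell cannot be told apart.

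The tissue carried the markers of an arterial wall. The 10 smooth muscle markers, among them Acta2 and Myh11, summed to between 16500 and 24400 CPM in Sept2C111A recipients and between 6220 and 19300 CPM in control recipients. Control 3 was the lowest of the 6 libraries in that list. On the first 2 principal components, which held 46.6% and 28.1% of the variance, controls 1 and 3 stood apart. The 10 neutrophil markers summed to 16.7 to 28.8 CPM in Sept2C111A recipients and to 89.4 to 2920 CPM in control recipients, with the highest sum in control 1. The 14 fibroblast markers, none of them a member, summed to 5890 to 8820 CPM in Sept2C111A recipients and to 3500 to 4470 CPM in control recipients.

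Decorin, osteoglycin and podocan, encoded by Dcn, Ogn and Podn, stood 1.97-fold to 2.31-fold higher on average in Sept2C111A recipients, and higher in every Sept2C111A library than in any control library, while biglycan, lumican, fibromodulin and asporin showed no difference beyond the spread between libraries. No gene of the 14466 tested passed edgeR's quasi-likelihood test after Benjamini-Hochberg adjustment, which makes the share called 0% in either direction, and so no member did. The smallest adjusted p over all genes was 0.316. At an unadjusted p under 0.05 edgeR gave 4 of the 9 tested members higher (Dcn, Ogn, Podn and Omd) and 0 lower, where 6.17% and 8.83% of all tested genes were higher and lower. DESeq2, another count test, called Dcn and Podn higher and 0 members lower, against 0.985% and 2.89% of all genes. Groups that did not overlap were found for 3 members, all higher in Sept2C111A recipients, where 11.2% of tested genes were separate and higher and 11.9% separate and lower. The members were chosen with earlier results of these data known, and some of them varied alike between libraries. These counts are therefore no independent evidence about the family.

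**Figure D1:**
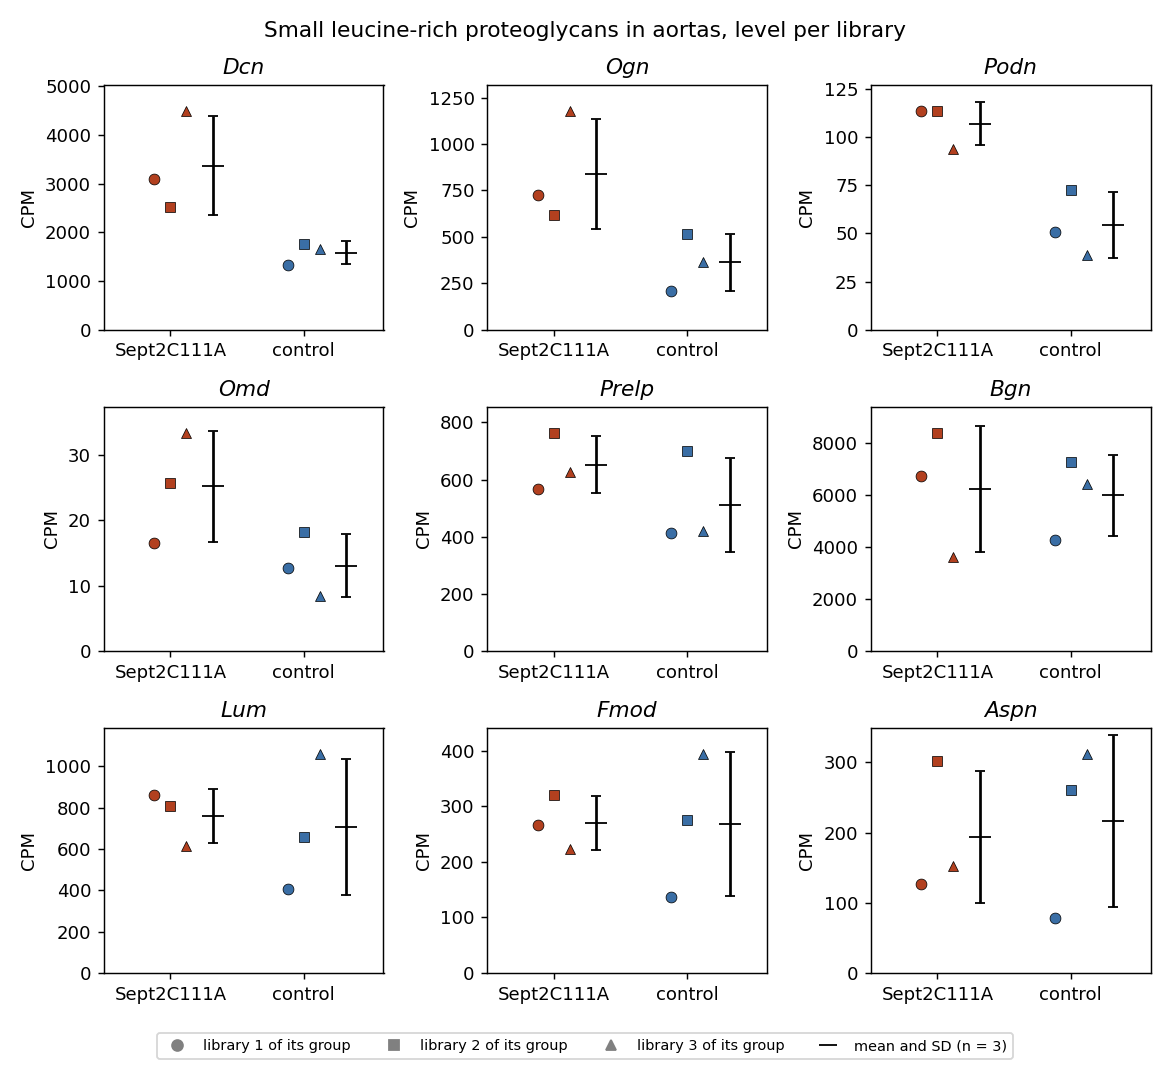
Level in CPM (vertical axis, linear, from 0) of the 9 tested members in each aorta library of Sept2C111A recipients (left in each panel, red) and control recipients (right, blue). Bars give mean and SD of 3 libraries. The groups do not overlap for Dcn, Ogn and Podn and overlap for the other 6.

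Dcn encodes decorin, which carries a chondroitin or dermatan sulphate chain, binds collagen and sequesters TGF-beta. It lies on chromosome 10 from 97479609 to 97518143 (mm10, plus strand). It stood at 3101, 2516 and 4489 CPM in Sept2C111A libraries 1, 2 and 3, against 1322, 1763 and 1661 CPM in control libraries 1, 2 and 3. The lowest Sept2C111A library exceeded the highest control, and the Sept2C111A libraries spread more widely, at 3369 ± 1013 CPM against 1582 ± 230.9 CPM in controls (SD, n = 3 each). The log2 fold change was 1.09 (SE 0.33), a 2.13-fold difference, with an edgeR adjusted p of 0.316 and a DESeq2 adjusted p of 0.00693. With 1 library left out at a time, DESeq2 called Dcn in 3 of 6 fits, and its adjusted p ran from 0.00126 to 0.0623. The log2 fold change by edgeR stayed between 0.84, without Sept2C111A library 3, and 1.26, without Sept2C111A library 2.

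Bgn encodes biglycan, the closest relative of decorin, which carries a pair of such chains and, when released from the matrix, is known to engage Toll-like receptors 2 and 4 on macrophages. It lies on the X chromosome from 73483602 to 73495933 (plus strand). Its levels were 6709, 8375 and 3601 CPM in Sept2C111A libraries and 4271, 7266 and 6397 CPM in control libraries. The Sept2C111A group thus held both the highest and the lowest of the 6 values, and the groups overlapped throughout. Means were 6229 ± 2423 CPM in Sept2C111A recipients and 5978 ± 1541 CPM in control recipients, a log2 fold change of 0.06 (SE 0.47, adjusted p = 0.958 by edgeR). Only 6 of the tested genes had a higher mean CPM than Bgn over the 6 libraries.

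Within a library, Dcn reached 0.462, 0.3 and 1.25 times the CPM of Bgn in Sept2C111A libraries 1, 2 and 3, against 0.31, 0.243 and 0.26 times in controls. Sept2C111A library 3 was the single library in which Dcn exceeded Bgn in CPM, and Sept2C111A library 2 lay within the range of the controls. The mean log2 ratio was -0.84 ± 1.05 in Sept2C111A recipients and -1.89 ± 0.18 in control recipients, a difference of 1.05 that became 0.47 without Sept2C111A library 3. This ratio was not tested.

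The 10 members together made up 1.25%, 1.38% and 1.1% of the TMM-adjusted total in Sept2C111A libraries and 0.69%, 1.15% and 1.07% in control libraries. Their sum was 12450 ± 1414 CPM in Sept2C111A recipients and 9693 ± 2460 CPM in control recipients, and the groups overlapped, since control 2, at 11530 CPM, exceeded Sept2C111A library 3, at 11010 CPM. Control 1 held the lowest sum, 6898 CPM. Bgn and Dcn supplied 73.5% to 78.7% of the sum in Sept2C111A libraries and 75.7% to 81.1% in controls. Dcn alone supplied 24.8%, 18.2% and 40.8% of it in Sept2C111A libraries and 19.2%, 15.3% and 15.6% in controls.

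**Figure D2:**
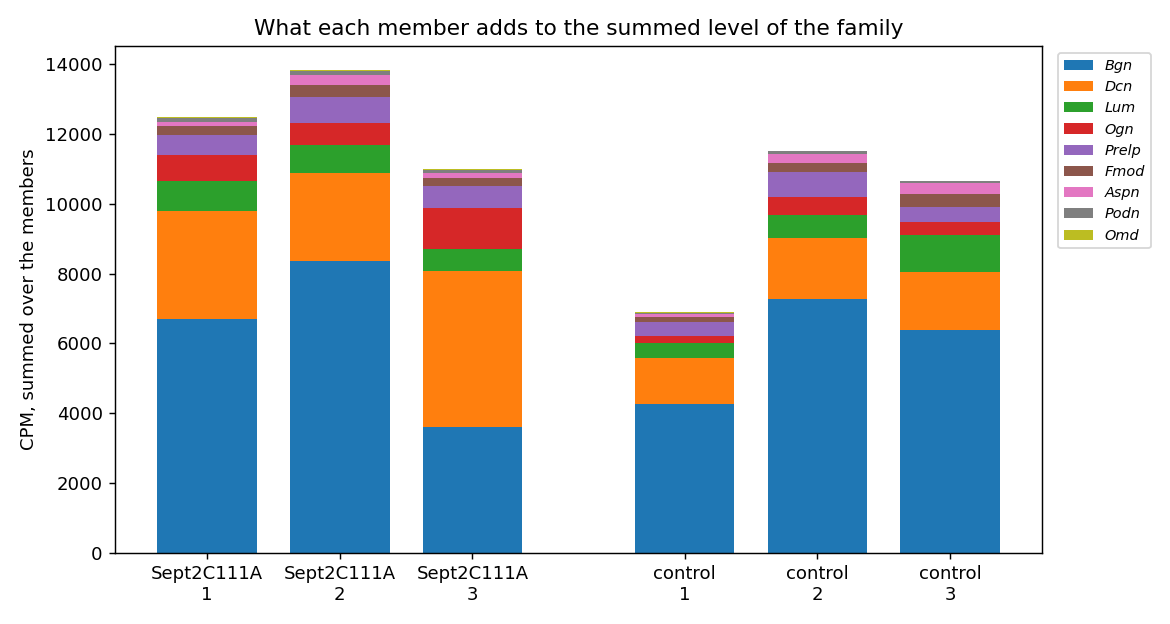
CPM of the members stacked for each library (vertical axis, from 0), with the 3 Sept2C111A libraries at the left and the 3 control libraries at the right; Kera, at or near 0, is not drawn. Dcn (orange) is largest in Sept2C111A library 3, where Bgn (blue) is smallest.

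CPM takes no account of transcript length, so the members were ranked by CPM per kilobase of the principal transcript in GENCODE vM21. Ratios between genes in CPM serve only to compare libraries. In Sept2C111A recipients the order was Bgn (2575 ± 1002), Dcn (1916 ± 576.3), Ogn (327.2 ± 115.9), Lum (310.5 ± 52.9), Prelp (180.5 ± 27.8), Fmod (86.7 ± 15.5), Aspn (83.2 ± 40.6), Podn (33.7 ± 3.53) and Omd (11.2 ± 3.75), all as mean ± SD of CPM per kilobase. In control recipients the same measure gave 2471 ± 636.9 for Bgn, 900.1 ± 131.3 for Dcn and 288.6 ± 134.3 for Lum. Ogn (141.5 ± 59.4), Prelp (141.3 ± 45.4), Aspn (93.0 ± 52.8) and Fmod (86.0 ± 41.3) followed in controls, ahead of Podn (17.1 ± 5.38) and Omd (5.82 ± 2.16). In Sept2C111A recipients, Bgn and Dcn, and Ogn and Lum, differed by less than the larger of their SDs. In controls so did Ogn and each of Prelp, Aspn and Fmod, and also Prelp and Aspn. Fmod and Aspn did so in both groups. With the length of all annotated exons in place of the principal transcript, Lum (288.6) stood above Dcn (271.0) in controls. By that length Aspn (82.3) also stood above Fmod (81.8) in Sept2C111A recipients. The order within these pairs thus depended on the transcript assumed.

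Ogn encodes osteoglycin, also called mimecan, a collagen-binding member found in the arterial wall. It stood at 724.8, 616.7 and 1177 CPM in Sept2C111A libraries and at 210.2, 515.2 and 363.8 CPM in control libraries. Each Sept2C111A library exceeded each control, with the narrowest gap between Sept2C111A library 2 and control 2. Its log2 fold change of 1.21 (SE 0.41) was the largest of the 9 tested members, and 300 of the 14466 tested genes had one at least as large. Ogn did not pass edgeR (adjusted p = 0.316) or DESeq2 (adjusted p = 0.0694). DESeq2 called it in 1 of 6 fits with a library left out, the fit without control 2.

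Podn encodes podocan, a member with no close relative among the other 9 that is known to restrain the growth of smooth muscle cells in mice. Podn had 113.3, 113.4 and 93.96 CPM in Sept2C111A libraries, against 50.91, 72.62 and 39.01 CPM in control libraries. The Sept2C111A libraries lay close together and above all controls, at 106.9 ± 11.2 CPM against 54.18 ± 17.04 CPM (SD, n = 3 each). The log2 fold change was 0.98 (SE 0.24), with an edgeR adjusted p of 0.316 and a DESeq2 adjusted p of 0.0224. DESeq2 called Podn in 1 of 6 fits with a library left out, again the fit without control 2, and its adjusted p ran up to 0.209.

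Omd encodes osteomodulin, best known from bone, and was the least abundant of the tested members, with 171.31 to 598.78 reads per library. It stood at 16.5, 25.7 and 33.3 CPM in Sept2C111A libraries and at 12.7, 18.1 and 8.46 CPM in control libraries. The groups overlapped, as control 2 exceeded Sept2C111A library 1. The log2 fold change was 0.94 (SE 0.36, adjusted p = 0.325 by edgeR, DESeq2 adjusted p = 0.171). Prelp, whose product links basement membranes to the connective tissue beneath, stood at 567.5, 763.2 and 626.6 CPM in Sept2C111A libraries and at 412.2, 700.1 and 419.8 CPM in control libraries. Library 2 of the controls lay within the Sept2C111A range, and the log2 fold change was 0.35 (SE 0.27, adjusted p = 0.525 by edgeR).

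Lum and Fmod encode lumican and fibromodulin, keratan sulphate proteoglycans that share a collagen site and follow each other in fibril assembly. Lum was at 860.8, 805.9 and 613.9 CPM in Sept2C111A libraries, against 405.1, 657.5 and 1057 CPM in control libraries. Fmod was at 266.3, 320.6 and 224.1 CPM in Sept2C111A libraries, against 136.0, 275.3 and 393.6 CPM in control libraries. For both genes control 1 was the lowest and control 3 the highest of the 6 libraries, and the Sept2C111A libraries lay between them. Their log2 fold changes were 0.11 (SE 0.37, adjusted p = 0.899 by edgeR) and 0.01 (SE 0.38, adjusted p = 0.992 by edgeR), and they changed sign when control 1 was left out, to -0.16 and -0.30.

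Aspn encodes asporin, which binds collagen and calcium and is known to inhibit TGF-beta and BMP2. It stood at 127.0, 301.8 and 152.2 CPM in Sept2C111A libraries and at 77.8, 260.9 and 311.3 CPM in control libraries. The groups overlapped fully, and Aspn was the single tested member with a negative log2 fold change, -0.16 (SE 0.56, adjusted p = 0.897 by edgeR). Kera encodes keratocan, the keratan sulphate proteoglycan of the cornea, and had 1 read in Sept2C111A library 2 and 0 reads in the other 5 libraries. A count of 0 allows up to 3 reads, which corresponds to 0.148 to 0.167 CPM per library and covers counting error alone.

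**Figure D3:**
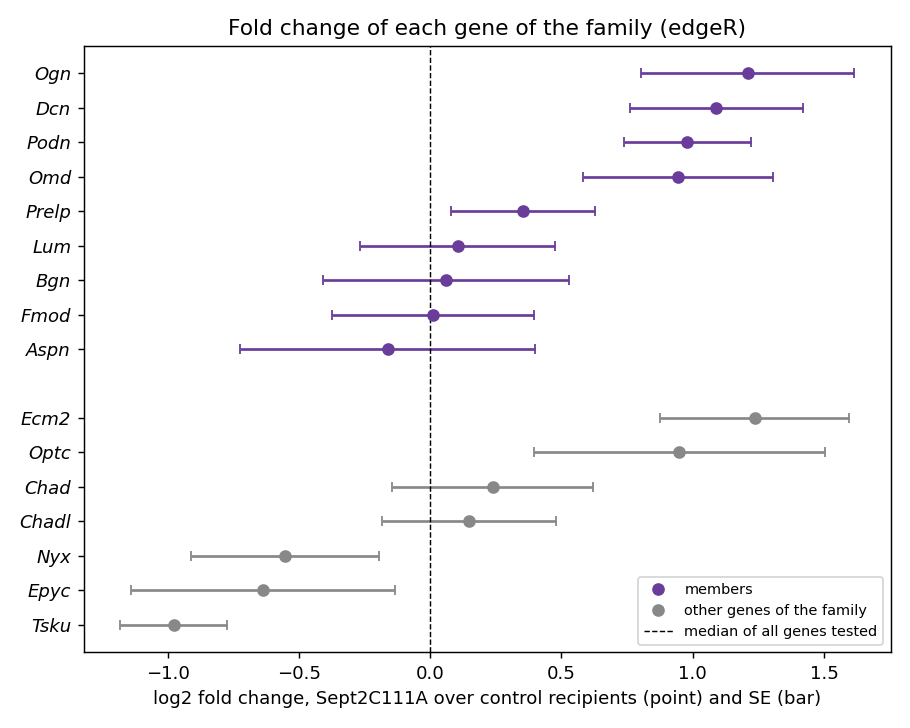
Log2 fold change by edgeR (horizontal axis, Sept2C111A over control recipients) with its SE for the 9 tested members (purple, above) and 7 other genes of the family (grey, below); the dashed line is the median of all tested genes, 0.00. Ogn, Dcn, Podn and Omd lie near 1, and Lum, Bgn, Fmod and Aspn lie within 0.2 of 0.

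Over the 9 tested members the median log2 fold change was 0.35, against 0.00 over all 14466 tested genes, with 8 members above 0. The number above 0 was 5 without control 1 and 6 without Sept2C111A library 2, and the median was 0.23 in both of these fits and 0.65 without control 2. Without Sept2C111A library 3, the library with the unmatched heading, log2 fold changes were 0.84 for Dcn, 0.90 for Ogn, 1.075 for Podn, 0.70 for Omd and 0.35 for Bgn. Neither edgeR nor DESeq2 called a member in that fit. DESeq2 also called 0 members without Sept2C111A library 1 and 0 without control 1, and edgeR called 0 in every fit. The libraries within a group differed in a like manner for several members. Sept2C111A library 3 was the highest of the 6 for Dcn, Ogn and Omd and the lowest of its own group for Bgn, Lum, Fmod and Podn. Control 1 was the lowest of the 6 for Dcn, Lum, Fmod, Prelp, Ogn and Aspn. Likeness of pattern was measured as the root mean square difference of log2 CPM, each gene centred on its mean over the 6 libraries. By that measure Lum and Fmod were the nearest pair of members, at 0.145, followed by Dcn and Ogn at 0.274, while Bgn was nearest to Fmod at 0.367 and Podn to Prelp at 0.363. For comparison, the spread of Dcn around its own mean was 0.596 and that of Ogn was 0.779 on the same scale.

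Among 10260 genes with a mean of at least 10 CPM over the 6 libraries, those nearest in pattern to Dcn were Fmo5, a flavin monooxygenase, at 0.105, Timp4, an inhibitor of metalloproteinases, at 0.116, and Selenbp1, a selenium-binding protein, at 0.131. Nearest to Ogn were Cyp27a1, a sterol hydroxylase, at 0.136, Galnt15, a glycosyltransferase, and Mturn, both at 0.192. Nearest to Podn were Armh4 at 0.094, the oestrogen receptor gene Esr1 at 0.098 and Rarres2, which encodes chemerin, at 0.099. Omd was nearest to Rhobtb1 at 0.122, Zfp707 at 0.185 and the thyroid hormone receptor gene Thrb at 0.194, and Prelp to Zfp651 at 0.068, Kif7 at 0.094 and Cnksr3 at 0.095. Bgn was nearest to Col6a3, a chain of collagen VI, at 0.112, to Cd109 at 0.14 and to Fat1 at 0.156. For Lum the nearest genes were H1f0 at 0.093, Lacc1 at 0.115 and Hacd4 at 0.117. For Fmod they were Glb1 and Arsb, lysosomal enzymes that act on sugar chains, at 0.084 and 0.097, and Sec16b at 0.09. For Aspn they were the endothelin receptor gene Ednra at 0.219, Vstm4 at 0.264 and Cpxm2 at 0.282. These are descriptions over 6 libraries, picked as the closest of many candidates.

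Position in the genome, which played no part in choosing the members, groups most of them. Lum follows Dcn on the same strand of chromosome 10 after 46984 bases, and Kera follows Lum after 34175 bases. In CPM, Dcn was 3.6, 3.12 and 7.31 times its neighbour Lum in Sept2C111A libraries and 3.26, 2.68 and 1.57 times in controls. Sept2C111A library 2 thus lay within the range of the controls, and this ratio was not tested. On chromosome 1, Prelp (133910304 to 133921414, minus strand) and Fmod (134037254 to 134048277, plus strand) are separated by 115839 bases. On chromosome 13 lie, in this order and on the plus strand, Ecm2, Aspn, Omd and Ogn, with gaps of 11653, 14896 and 15223 bases. Ecm2, a related gene that is not among the 10, stood at 157.8, 179.9 and 282.2 CPM in Sept2C111A libraries and at 68.1, 130.7 and 64.4 CPM in control libraries, with a log2 fold change of 1.24 (SE 0.36, adjusted p = 0.316 by edgeR, DESeq2 adjusted p = 0.0421, called by DESeq2 in 1 of 6 fits with a library left out).

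Of these 4 neighbours, Ecm2, Omd and Ogn thus had log2 fold changes from 0.94 to 1.24, while Aspn, which lies between Ecm2 and Omd, had -0.16. In each library the ratio of Ogn to Aspn in CPM was 5.71, 2.04 and 7.74 in Sept2C111A recipients and 2.7, 1.97 and 1.17 in control recipients. Sept2C111A library 2 thus lay within the range of the controls. Aspn, Omd and Ogn overlap Cenpp, a centromere gene on the opposite strand. Cenpp shares 7 exonic bases with Aspn and 0 with Omd and Ogn, and its level was 0.779 to 1.88 CPM in Sept2C111A libraries and 1.23 to 3.51 CPM in control libraries, far below those of Aspn and Ogn. Prelp overlaps an antisense gene, Gm15851, by 350 exonic bases, and without a stated strand setting their reads cannot be told apart. Podn lies partly within Scp2 on the same strand, with 0 shared exonic bases.

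**Figure D4:**
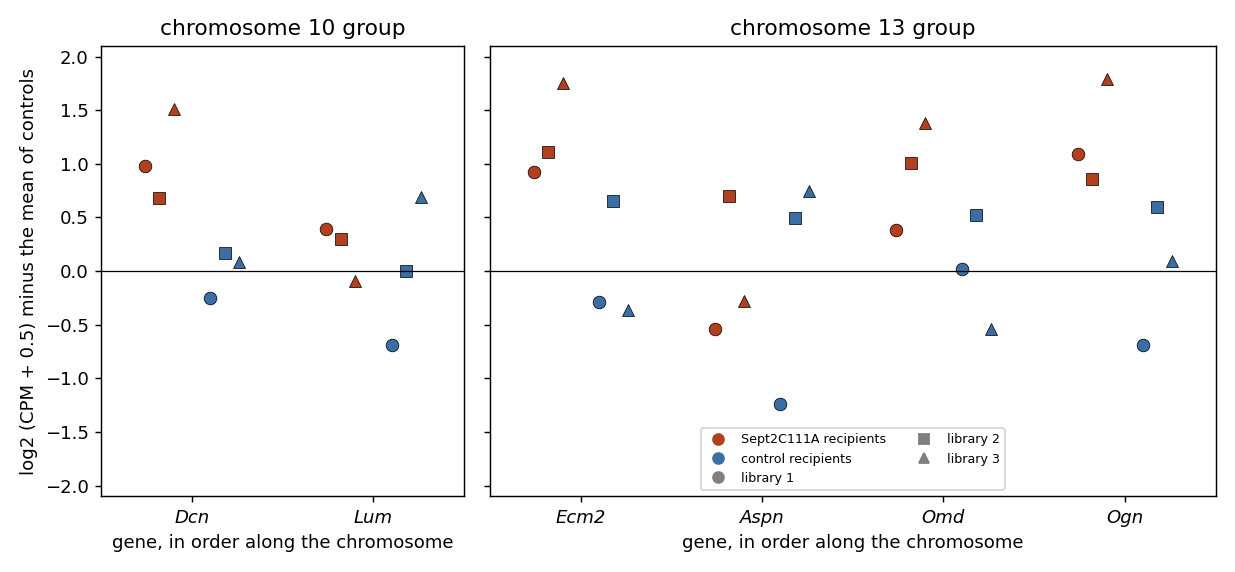
Log2 (CPM + 0.5) minus the mean of the control libraries (vertical axis) for neighbouring genes of the family, in order along chromosomes 10 (left) and 13 (right); red, Sept2C111A recipients, and blue, control recipients, with one symbol shape per library number. Sept2C111A libraries lie above 0 for Dcn, Ecm2, Omd and Ogn and on both sides of 0 for Lum and Aspn.

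The promoters of the neighbours Ogn, Omd and Aspn, and of Podn and Bgn, are shown because the first 3 lie side by side, with Aspn near 0 and Ogn and Omd near 1 in log2 fold change, and because Podn and Bgn were likewise near 1 and near 0. They are RefSeq sequences (GRCm38.p6) of 250 bases before and 50 after the start of the transcript, taken from a table that held 8 of the 10 members. They cover chr13:49607765-49608064 (plus strand) for Ogn, chr13:49582212-49582511 (plus strand) for Omd, chr13:49544193-49544492 (plus strand) for Aspn, chr4:108031905-108032204 (minus strand) for the more upstream of the 2 starts of Podn and chrX:73483351-73483650 (plus strand) for Bgn. Capitals mark matches, on either strand, to any of 6 short motifs. These were the TATA box with the letters TATAAA, the GC box with the letters GGGCGG, and the box spelled CCAAT. Added to them were the AP-1 element with the letters TGANTCA, the muscle element MCAT with the letters GGAATG, and the SMAD element with the letters CAGACA.
Ogn: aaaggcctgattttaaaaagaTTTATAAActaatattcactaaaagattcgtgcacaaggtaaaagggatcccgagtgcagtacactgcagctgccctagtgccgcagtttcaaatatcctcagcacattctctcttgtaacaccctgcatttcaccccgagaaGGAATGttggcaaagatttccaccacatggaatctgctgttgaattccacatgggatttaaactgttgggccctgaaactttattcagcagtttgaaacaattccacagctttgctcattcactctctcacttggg
Omd: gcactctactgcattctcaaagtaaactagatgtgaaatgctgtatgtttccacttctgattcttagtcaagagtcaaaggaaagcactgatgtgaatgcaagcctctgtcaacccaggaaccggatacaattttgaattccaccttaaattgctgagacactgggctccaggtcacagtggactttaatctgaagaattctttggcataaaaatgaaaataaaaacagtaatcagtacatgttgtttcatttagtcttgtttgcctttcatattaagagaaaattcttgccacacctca
Aspn: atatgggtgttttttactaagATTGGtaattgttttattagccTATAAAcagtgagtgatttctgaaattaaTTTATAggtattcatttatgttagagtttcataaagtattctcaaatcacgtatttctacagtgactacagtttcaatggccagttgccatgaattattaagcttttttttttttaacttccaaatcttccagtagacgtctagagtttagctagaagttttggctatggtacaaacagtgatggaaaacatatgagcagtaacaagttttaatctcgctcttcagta
Podn: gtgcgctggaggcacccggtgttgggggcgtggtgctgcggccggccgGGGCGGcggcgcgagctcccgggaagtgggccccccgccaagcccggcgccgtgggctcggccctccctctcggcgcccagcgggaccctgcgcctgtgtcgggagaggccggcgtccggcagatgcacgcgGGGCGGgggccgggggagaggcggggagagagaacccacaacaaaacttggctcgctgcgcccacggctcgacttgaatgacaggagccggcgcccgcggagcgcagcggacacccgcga
Bgn: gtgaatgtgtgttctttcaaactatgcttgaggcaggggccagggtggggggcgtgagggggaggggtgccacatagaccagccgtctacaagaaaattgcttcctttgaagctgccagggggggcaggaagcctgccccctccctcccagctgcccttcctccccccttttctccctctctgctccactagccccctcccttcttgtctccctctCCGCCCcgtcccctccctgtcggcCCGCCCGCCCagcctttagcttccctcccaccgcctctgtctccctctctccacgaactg
Of 32851 mouse promoters of this length, 13.6% held TATAAA, 35.7% GGGCGG, 37.4% CCAAT, 7.81% TGANTCA, 14.7% GGAATG and 21% CAGACA. Ogn and Aspn each held TATAAA, far upstream of the start, and in Ogn the 2 matches overlap on opposite strands. The Ogn promoter also held GGAATG, Aspn held CCAAT, and Omd held none of the 6. Podn held 2 GC boxes and Bgn held 3, of which the last 2 overlap. The shares of G and C were 42.3% for Ogn, 37.7% for Omd, 31% for Aspn, 77% for Podn and 63.7% for Bgn, against a median of 52.7% over all promoters. Ogn, Omd and Podn thus shared none of the 6 in these windows, and a missing match says only that these letters are not there.

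A further 8 genes of the family were listed. Optc, which encodes opticin, known from the eye, was at 20.4, 31.4 and 22.8 CPM in Sept2C111A libraries and at 15.8, 19.0 and 3.81 CPM in control libraries, without overlap but with a log2 fold change of 0.95 (SE 0.55, adjusted p = 0.42 by edgeR) that was 0.51 without control 3. Tsku encodes Tsukushi, a secreted inhibitor of BMP and Wnt signals, and lay in the opposite direction: 22.1, 29.2 and 19.8 CPM in Sept2C111A libraries against 50.9, 37.5 and 51.3 CPM in control libraries. Every Sept2C111A library of Tsku was below every control, with a log2 fold change of -0.98 (SE 0.20, adjusted p = 0.316 by edgeR, DESeq2 adjusted p = 0.00792), and DESeq2 called it in 2 of 6 fits with a library left out. Epyc, Nyx, Chad and Chadl overlapped between the groups, with log2 fold changes of -0.64, -0.55, 0.24 and 0.15. Leaving out single libraries moved these values, turning the sign for Chad and Chadl and not for Epyc or Nyx. Epyc ran from -1.32 without Sept2C111A library 2, the single left-out fit in which DESeq2 called it, to -0.26 without control 3. Nyx ran from -0.80 without Sept2C111A library 1 to -0.36 without Sept2C111A library 2. Chad was -0.056 without Sept2C111A library 1, and Chadl was -0.06 without control 3. Podnl1, the relative of podocan, had too few reads to be tested and stood at 0.167 to 0.42 CPM in Sept2C111A libraries and at 0.335, 1.89 and 7.32 CPM in control libraries.

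The fibroblast markers stood beside these differences. Of the 14 markers 11 had a log2 fold change above 0, with a median of 0.59. The 3 below 0 were Mfap5 (-0.412), Cd248 (-0.375) and Dpp4 (-0.12), none of them called by edgeR or DESeq2. Groups did not overlap for 8, all higher in Sept2C111A recipients, where 11.2% of all tested genes were separate and higher. DESeq2 called 4 higher (Cd34, Clec3b, Scara5 and Igfbp6), against 0.985% of all genes. With a library left out it called Igfbp6 in 6 of 6 fits, Cd34 in 5, and Clec3b and Scara5 in 4 each. None of the 14 was at 0. Relative to the mean log2 level of these markers in the same library, Dcn stood at 4.01 ± 0.41 in Sept2C111A recipients. In control recipients Dcn stood at 3.57 ± 0.25, a difference of 0.43. The log2 fold change of 1.09 for Dcn is edgeR's fitted value, made without the markers and on another scale. On the same relative scale the difference was 0.62 for Ogn, 0.39 for Podn and 0.30 for Omd. It was -0.62 for Bgn, -0.43 for Lum, -0.50 for Fmod, -0.66 for Aspn and -0.24 for Prelp. For Omd, Bgn, Lum, Fmod, Aspn and Prelp the size of the difference was below the larger of the group SDs. For Dcn and Ogn it was barely above that SD, which was 0.41 for Dcn and 0.61 for Ogn. Podn stood further above it (SD 0.195 in Sept2C111A recipients and 0.278 in control recipients). These relative differences were not tested. Smooth muscle markers had a median log2 fold change of 0.47 (0.12 without control 3), with 0 called by edgeR or DESeq2. Fat markers were also higher on average. All 8 adipocyte markers were above 0, with a median of 0.94 (0.56 without control 3 and 0.51 without Sept2C111A library 1), and they summed to 1800 to 3520 CPM in Sept2C111A recipients and 823 to 2720 CPM in control recipients. All 5 brown fat markers were above 0, with a median of 1.99 (1.17 without Sept2C111A library 3), and summed to 783, 292 and 1570 CPM in Sept2C111A libraries 1, 2 and 3, against 426, 302 and 10 CPM in control libraries 1, 2 and 3. Neither fat list held a gene called by edgeR or DESeq2, and the groups overlapped in both sums. Among the Sept2C111A libraries the brown fat sum had the same order as Dcn and Ogn, highest in library 3 and lowest in library 2, whereas among controls it was highest in control 1, where Dcn and Ogn were lowest. The part of cell content in the differences of the members was not tested.

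Enzymes that build the sugar chains lay mostly below 0. Of 28 tested genes, 8 had a log2 fold change above 0 and 20 below, with a median of -0.25 that was -0.097 without control 3 and -0.135 without Sept2C111A library 3. No gene of the list was called by edgeR and 1 was called lower by DESeq2. That gene was Chst11, a chondroitin 4-sulphotransferase, at 28.4, 25.1 and 26.4 CPM in Sept2C111A libraries and at 159.4, 46.1 and 80.0 CPM in control libraries (log2 fold change -1.84, SE 0.44). Control 1, richest in neutrophil markers, held the highest level, and without it the log2 fold change was -1.23. DESeq2 called Chst11 in 4 of 6 fits with a library left out. B4galt7, which adds the first galactose of the linker on which chains are built, was at 19.1 ± 0.503 CPM in Sept2C111A recipients and 25.5 ± 5.22 CPM in control recipients. Ust, which sulphates uronic acid in dermatan sulphate, was at 33.83 ± 1.599 CPM in Sept2C111A recipients and 21.9 ± 4.57 CPM in control recipients, without overlap. Its log2 fold change was 0.63 (edgeR adjusted p = 0.316, DESeq2 adjusted p = 0.0695). Csgalnact2, which starts chondroitin chains, was at 108.0 ± 20.2 CPM in Sept2C111A recipients and 94.9 ± 10.8 CPM in control recipients. For Csgalnact2 the groups overlapped, with a log2 fold change of 0.185 (edgeR adjusted p = 0.601).

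Collagens and other fibre proteins, the partners of these proteoglycans, lay mostly below 0: 15 of 18 tested genes, median -0.81, with 0 called by edgeR. Without control 3 the median was -0.32, with 12 of 18 below 0, and without Sept2C111A library 3 it was -0.51, with 10 of 18 below 0. The exceptions included Dpt, which encodes dermatopontin, a decorin-binding matrix protein, and Tnxb, which encodes tenascin-X, both called higher by DESeq2. Dpt stood at 1105, 920.4 and 1000 CPM in Sept2C111A libraries and 526.6, 686.8 and 414.7 CPM in control libraries (log2 fold change 0.89, SE 0.24, DESeq2 adjusted p = 0.0116, called in 3 of 6 fits with a library left out). Tnxb stood at 531.7 ± 47.0 CPM in Sept2C111A recipients and 231.8 ± 75.0 CPM in control recipients (log2 fold change 1.20, DESeq2 adjusted p = 0.00509, called in 5 of 6 such fits). Lox, the enzyme that cross-links collagen and elastin, was at 607.2 ± 302.7 CPM in Sept2C111A recipients and 1456 ± 402.5 CPM in control recipients, without overlap and with an edgeR adjusted p of 0.316. Col1a1, the main chain of collagen I, was at 4144, 6825 and 2469 CPM in Sept2C111A libraries and 3629, 8748 and 22030 CPM in control libraries. Control 3 held by far the highest level, as it did for Col11a1, a chain of collagen XI, at 971.1 CPM in control 3 and under 28 CPM in the other 5 libraries, whose log2 fold change of -6.10 was -1.92 without it.

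Proteases that cut these proteoglycans, together with procollagen-processing enzymes, numbered 13 tested genes, whose log2 fold changes had a median of -0.74, with 4 above 0. Control 3 set that sign, since without it the median was 0.10 and 7 of the 13 lay above 0. DESeq2 called 4 of them lower and 0 higher, and edgeR called 0. Adamts4, an aggrecanase that also cleaves biglycan and decorin, was at 17.7, 25.9 and 15.3 CPM in Sept2C111A libraries and 91.3, 45.9 and 110.8 CPM in control libraries (log2 fold change -2.08, SE 0.37, called by DESeq2 in all 6 fits with a library left out). Mmp9, a gelatinase that neutrophils and macrophages store or make, was at 5.25, 1.66 and 8.01 CPM in Sept2C111A libraries and 891.7, 28.0 and 495.7 CPM in control libraries. Mmp8, the neutrophil collagenase, and Tll1, a tolloid protease, were the other 2 genes called, each at under 27 CPM in every library and each called in 2 of 6 fits with a library left out. The log2 fold change of Tll1, -2.47, was -1.19 without control 3. Pcolce2, an enhancer of procollagen processing, was at 173.1 ± 17.9 CPM in Sept2C111A recipients and 98.6 ± 44.3 CPM in control recipients, with an edgeR adjusted p of 0.35. Mmp3, stromelysin-1, which can cleave decorin, was at 336.4 ± 109.2 CPM in Sept2C111A recipients and 203.8 ± 69.8 CPM in control recipients (edgeR adjusted p = 0.362). Bmp1, which removes the propeptide of biglycan, was at 299.7 to 381.0 CPM in Sept2C111A libraries and 273.5 to 671.3 CPM in control libraries (log2 fold change -0.48, SE 0.34, edgeR adjusted p = 0.485).

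Receptors and ligands tied to decorin and biglycan numbered 21 tested genes, median log2 fold change -0.18, which ran from -0.36 without Sept2C111A library 2 to -0.11 without Sept2C111A library 3. DESeq2 called 1, Nlrp3, lower, and edgeR called 0. Nlrp3, the inflammasome sensor, was at 3.57, 3.04 and 2.17 CPM in Sept2C111A libraries and 102.8, 3.79 and 9.40 CPM in control libraries, and its log2 fold change of -3.72 was -1.16 without control 1. DESeq2 called it in 1 of 6 fits with a library left out. Tlr2, a receptor of soluble biglycan, was at 26.1, 24.3 and 18.4 CPM in Sept2C111A libraries and 150.3, 31.3 and 30.4 CPM in control libraries. Tgfb1, which decorin binds, was at 60.6 ± 13.5 CPM in Sept2C111A recipients and 125.4 ± 42.7 CPM in control recipients, without overlap (log2 fold change -1.05, SE 0.31, edgeR adjusted p = 0.316, DESeq2 adjusted p = 0.059). Erbb4 and Bmp4, a receptor of the EGF family and a bone morphogenetic protein, had log2 fold changes of 0.90 and 0.96 (edgeR adjusted p = 0.316 and 0.363), and that of Bmp4 was 0.62 without control 3. Control 1, with 476.8 CPM of the co-receptor gene Cd14, stood apart for several genes of this list and was also richest in neutrophil markers, whose part in these values was not tested.

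Of 19 other proteoglycans tested 9 were above 0, and the median of their log2 fold changes was -0.03, with 0 called by edgeR. With a library left out that median ran from -0.36, without control 2 or Sept2C111A library 2, to 0.25, without Sept2C111A library 3. Gpc3, a glypican, was at 127.8, 120.7 and 184.9 CPM in Sept2C111A libraries and 80.7, 72.8 and 54.4 CPM in control libraries, and DESeq2 called it higher (adjusted p = 0.00544) and did so in 5 of 6 fits with a library left out. Gpc6, another glypican, was at 143.6 ± 17.4 CPM in Sept2C111A recipients and 93.8 ± 17.9 CPM in control recipients. Vcan, which encodes versican, the large chondroitin sulphate proteoglycan of the intima, was at 91.0, 178.3 and 93.3 CPM in Sept2C111A libraries and 292.9, 196.3 and 236.5 CPM in control libraries, without overlap (log2 fold change -1.001, SE 0.32, edgeR adjusted p = 0.316). Srgn, which encodes serglycin of leukocyte granules, was at 77.8, 38.7 and 71.2 CPM in Sept2C111A libraries and 1842, 72.3 and 197.8 CPM in control libraries; its log2 fold change of -3.49 was -1.10 without control 1. DESeq2 called Srgn lower, and in 1 of 6 fits with a library left out.

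**Figure D5:**
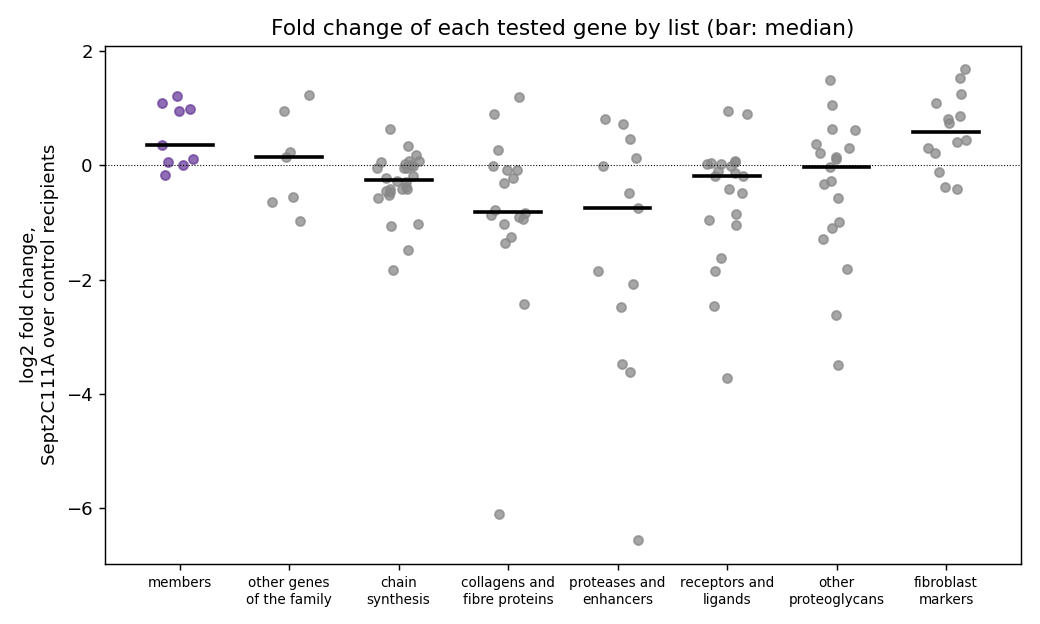
Log2 fold change of each tested gene (vertical axis, Sept2C111A over control recipients) in the members (purple), 6 lists of related genes and the fibroblast markers (grey), with the median of each list as a bar. The members' median is 0.35, that of collagens and fibre proteins -0.81 (-0.32 without control 3) and that of fibroblast markers 0.59.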

How the data were processed

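RNA from 6 aorta samples was sequenced. The authors deposited expected counts for each gene symbol in a file per library, without normalisation. Per the submitters' processing notes, Bowtie2, RSEM 1.3.1 and DESeq2 1.4.5 were used with mm10. Annotation, read filters and strand setting were not stated. The file of Sept2C111A library 3, headed with a number that no library here carries, was assigned by GEO's sample record.

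Expected counts were rounded and tested in R 4.3.3 with edgeR 4.0.16 (two-sided quasi-likelihood F test, group as the single factor, filterByExpr with minimum count 10, TMM). An adjusted p under 0.05 over all 14466 kept genes counted as passing, with each SE computed from F and the fold change. DESeq2 1.42.0 and limma 3.58.1 (voom with library weights) were alternatives, as were other scalings and filters, each library left out and the sample number as a block. Coordinates are 1-based, from GENCODE vM21 of the same build.

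The members, lists and alternatives were chosen with earlier results of these data known. Named by rule were the members, their relatives, in each list the 2 genes of smallest edgeR p per direction (mean count 50 or more), and the 3 genes nearest each member in pattern. Acta2, Myh11, Bmp1, Cd14, Col1a1, Mmp8, Tll1, Tlr2 and DESeq2's calls were named after their values were seen. The design text gives 3 per group, and nothing says how samples were taken beyond that, so p-values measure the spread between these samples.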

Additional observations from a re-analysis of the deposited data

How the results depend on the processing

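With edgeR under every scaling, filter, block and left-out library run, 0 genes and 0 members passed (879 to 3017 genes at an unadjusted p under 0.05), and limma-voom called 0 (2022 at that p). DESeq2 called 145 genes higher and 425 lower, and 2 members higher (Dcn and Podn). DESeq2 with a library left out, chosen after seeing the data, called 0 to 5 members: 5 without control 2, and 1 without control 3 or Sept2C111A library 2. Log2 fold changes of Dcn, Ogn, Podn, Omd and Prelp stayed above 0 in all 20 alternatives. Those near 0 changed sign with single libraries. With a library left out in edgeR, Bgn ran from -0.212 to 0.347, Lum from -0.163 to 0.517, Fmod from -0.297 to 0.395 and Aspn from -0.632 to 0.194. In DESeq2 the sign turned for Bgn (-0.224 without Sept2C111A library 2 and -0.133 without control 1), Lum (-0.175 without control 1), Fmod (-0.143 without Sept2C111A library 2 and -0.308 without control 1) and Aspn (0.069 without Sept2C111A library 1 and 0.191 without control 3, lowest -0.65). Bgn was -0.017 with limma-voom. The cause was not tested. The members' median of 0.35 ran from 0.225 to 0.653 with a library left out, and the log2 ratio of their summed CPM, 0.36, was 0.166 without control 1. Scalings moved the median of all genes to at most 0.04.

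Sample numbers gave no sign of pairing, as deviations of same-numbered samples correlated at 0.005, 0.15 and -0.166. Those of unlike-numbered samples ran from -0.214 to 0.161. With 3 libraries per group, this check cannot settle whether the samples were paired. With the number as a replicate block, edgeR called 0 genes (1489 at an unadjusted p under 0.05) and 0 members, and the members' median was 0.39. The lowest count of a tested member was 171.31 reads, for Omd in control 3.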
